A study of Mus musculus with 20 samples.

Results

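The 38 homeobox genes of the HOX clusters, of 39179 genes in the table, were examined in 20 single mouse podocytes. They were the rows whose symbol was Hoxa, Hoxb, Hoxc or Hoxd followed by a number, with upper and lower case read alike because the table writes these symbols both ways. By Ensembl ID they were the same 38 genes under their HOX names in the mouse annotation, which names 39; Hoxd4 was not analysed here. Podocytes are epithelial cells whose foot processes cover the capillaries of the glomerulus, the kidney's filter. The donor of all 20 cells was a male C57BL/6 mouse, wild type and 8 weeks old; its glomeruli were gathered with magnetic beads and dissociated with enzymes, and a Fluidigm C1 instrument captured the cells and made cDNA from each. The cells form 1 group from 1 animal, so no contrast and no p-value exists, and each SD is a spread between cells. Cells are numbered 1 to 20 and are not biological replicates.

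HOX genes encode transcription factors with a homeodomain, a DNA-binding fold, and lie in 4 clusters, HOXA to HOXD. Genes of the same paralog number, 1 to 13, descend from a common ancestor and hold the same place in each cluster. In vertebrate embryos low numbers are switched on early and towards the head, high numbers late and towards the tail, and the chromatin of the clusters keeps that pattern in adult cells. In mouse kidney development the paralog 11 genes act together in the progenitors of the nephron, the lineage that gives rise to podocytes.

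Levels are in RPKM, which scales a gene's reads to 1 kilobase of its length and 1000000 reads of the library. A gene at or above 1 RPKM counts as found. Reads assigned to genes, recovered from the values, ran from 4205562 in cell 15 to 10448491 in cell 17, and genes found per cell from 2371 to 4977. Podocyte markers were present in every cell, with 16 to 20 of 20 found. Cells 5, 6, 8, 10, 11 and 14 also held RNA of other glomerular cell types. They reached a limit of 4 of 14 mesangial and mural markers or 9 of 16 endothelial markers, and are called mixed here; the remaining 14 are called unmixed. The summed level of the mesangial and mural markers, 10 of which were found in some cell, was 7.07 to 5564 RPKM in the mixed cells and 0.210 to 84.7 RPKM in the unmixed. Ren1 was at 0 in all cells and Acta2 was found in none. The endothelial markers, 13 of them found, summed to 472 to 4386 RPKM in mixed and 67.0 to 2655 RPKM in unmixed cells, over all cells most of it Plat, which was found in every cell; Kdr and Pecam1 were found in cell 8 alone.

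Among the HOX genes, 19 of 38 (50%) were found in at least 1 cell, against 30% of all genes in the table and 46.5% of its protein-coding genes. In at least 5 cells 9 HOX genes (23.7%) were found, against 13.6% of all genes and 23% of protein-coding genes, so by these counts HOX genes lay near the protein-coding background. No HOX gene was found in every cell, which 0.664% of all and 1.11% of protein-coding genes were. Single values of HOX genes reached 1 RPKM in 100 of 760 cases (13.2%), against 8.76% over the table. That share was not computed for protein-coding genes alone, which exceeded all genes in each count above. Of the 760, 608 were 0, 52 lay above 0 and below 1 RPKM, 42 from 1 to under 10, 42 from 10 to under 100, and 16 at 100 RPKM or more. Over all 38 genes most values were thus 0, and the others ranged from traces to 578 RPKM, but 3 genes, Hoxa10, Hoxc8 and Hoxa9, were found in more than 10 cells.

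**Figure D1:**
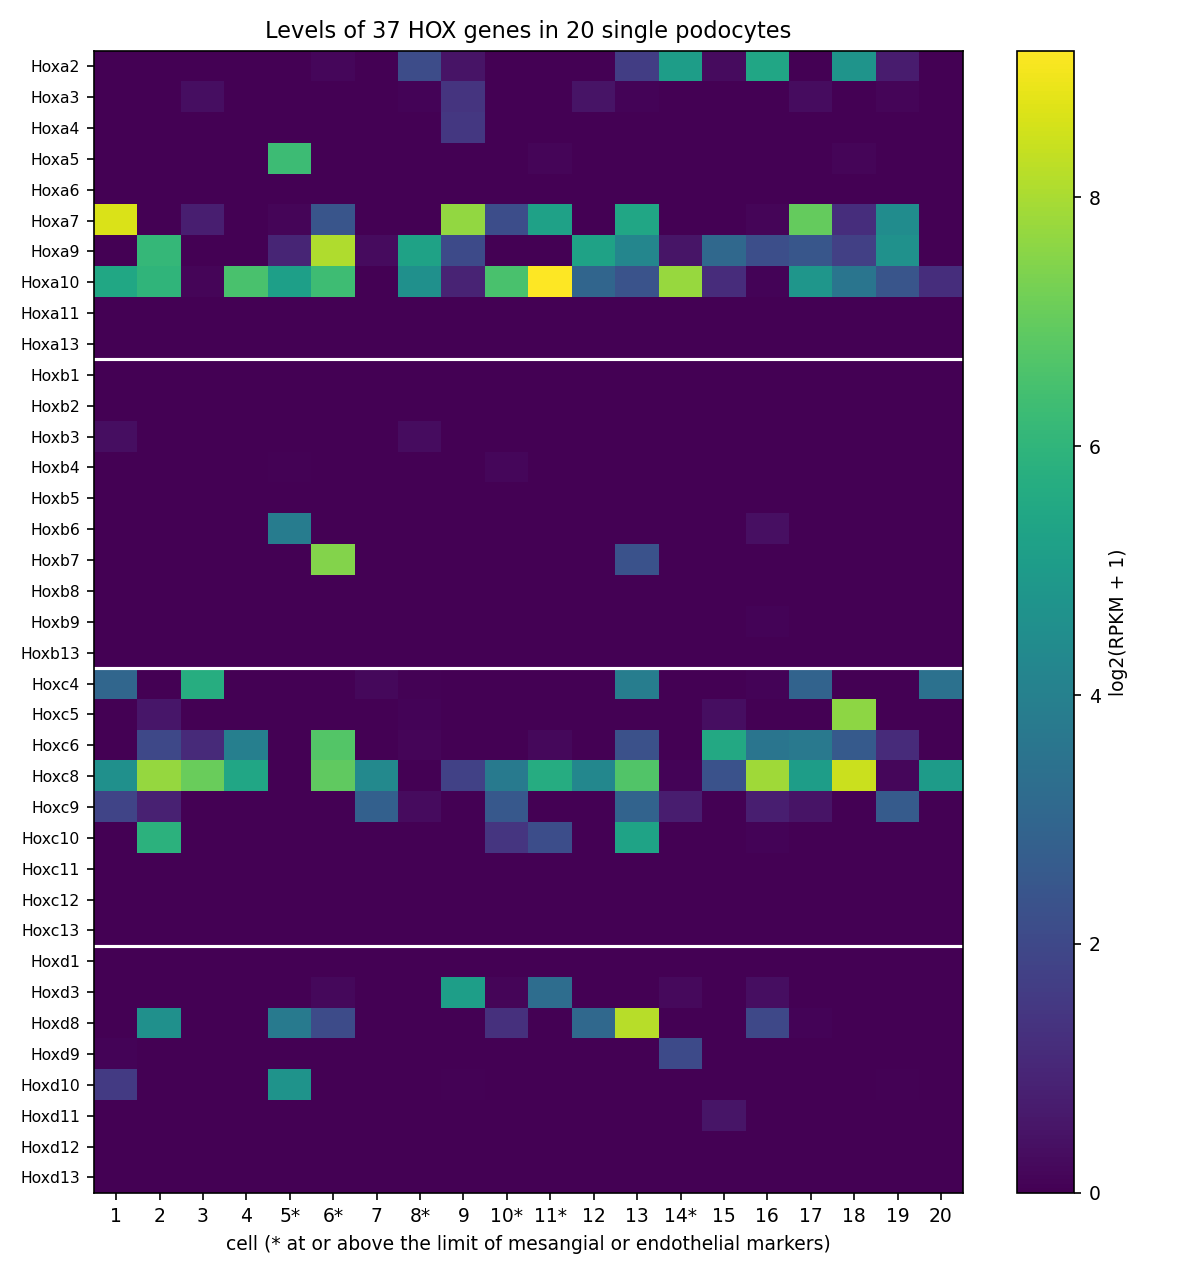
Level of 37 HOX genes (rows, by cluster and paralog number) in each of the 20 cells (columns), coloured by log2(RPKM + 1), with mixed cells starred. Bright squares concentrate in the middle rows of HOXA and HOXC, led by Hoxa10 and Hoxc8, while HOXB and the highest paralog numbers are nearly empty.

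Every cell held Hoxa10 or Hoxc8, a pair singled out after the values were seen. Both were found in 12 cells, Hoxa10 without Hoxc8 in 4 and Hoxc8 without Hoxa10 in 4. Each was found in 16 of 20 cells, a breadth reached by these 2 HOX genes (5.26%), 2.59% of all genes and 4.4% of protein-coding genes. Together they made up 49.1% of all HOX RPKM summed over the cells.

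Hoxc8, which patterns the thoracic skeleton and brachial motor neurons in the mouse, had the highest median of the HOX genes. Its values began at 0 in cells 5 and 8 and went through a median of 27.6 RPKM to 351 RPKM in cell 18, and averaged 69.5 ± 96.3 RPKM (SD, n = 20 cells). Next came cell 16 with 234 RPKM, then cell 2 with 209.5 RPKM. Hoxc8 was found in 13 of 14 unmixed cells (median 32.8 RPKM, up to 351) and in 3 of 6 mixed cells (median 6.30 RPKM, 0 to 120). The ranges overlapped, and the unmixed cell without it, cell 19, held 0.117 RPKM.

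Hoxa10, known for its part in patterning the uterus and the lumbar skeleton, had a median of 16.9 RPKM. Its lowest value was 0 in cell 7 and its highest 578 RPKM in cell 11, around an average of 63.9 ± 132 RPKM (SD, n = 20 cells); cell 14 came next at 216 RPKM. All 6 mixed cells held it, from 23.2 to 578 RPKM with a median of 85.4 RPKM. Among the 14 unmixed cells 10 held it, from 0 to 91.1 RPKM with a median of 4.23 RPKM. The ranges overlapped between 23.2 and 91.1 RPKM, and the 2 highest values were in mixed cells with 7 and 9 of the 14 mesangial and mural markers. The part of these other cells in the Hoxa10 level was not tested.

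**Figure D2:**
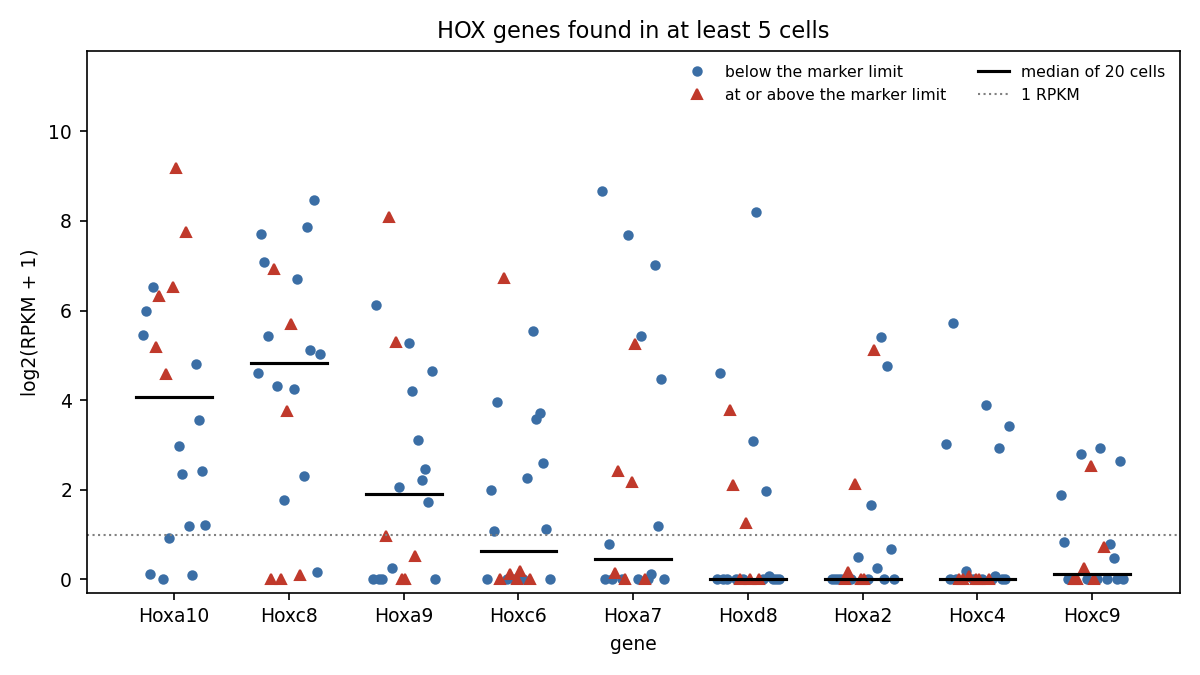
RPKM of the 9 HOX genes found in at least 5 cells, 1 point per cell on a log2(RPKM + 1) axis, with a bar at the median, a dotted line at 1 RPKM and the mixed cells, at or above the marker limit, as red triangles. Hoxc8 and Hoxa10 have medians of 27.6 and 16.9 RPKM; the mixed cells lie in the upper range of Hoxa10, and for every gene single cells lie far above the median.

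Hoxa10 lies on the minus strand beside Hoxa11, of which no read was counted in any cell. RefSeq gives 2 promoters for Hoxa10 (build GRCm38.p6), and the neighbours are shown because their RNA differs so widely here: the downstream Hoxa10 promoter, chr6:52234890-52235189, and the Hoxa11 promoter, chr6:52245761-52246060, each from 250 bases before to 50 after the start. Capitals mark a match to the letters of a TATA box (TATAAA, searched on both strands). It lay on the opposite strand and began at base 91 of a window whose first 250 bases precede the start. The match was thus far from the start and is not shown to be a working TATA box. The Hoxa10 window also held CCAAT, and the Hoxa11 window held neither. The other Hoxa10 promoter, chr6:52240805-52241104, which lies nearer to Hoxa11, also held neither, so these motifs do not separate the neighbours.
Hoxa10: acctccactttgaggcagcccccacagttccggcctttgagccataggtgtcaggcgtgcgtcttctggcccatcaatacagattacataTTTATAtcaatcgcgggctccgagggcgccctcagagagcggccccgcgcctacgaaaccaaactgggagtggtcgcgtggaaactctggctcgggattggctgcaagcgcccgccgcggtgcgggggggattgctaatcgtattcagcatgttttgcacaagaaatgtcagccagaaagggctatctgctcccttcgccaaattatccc
Hoxa11: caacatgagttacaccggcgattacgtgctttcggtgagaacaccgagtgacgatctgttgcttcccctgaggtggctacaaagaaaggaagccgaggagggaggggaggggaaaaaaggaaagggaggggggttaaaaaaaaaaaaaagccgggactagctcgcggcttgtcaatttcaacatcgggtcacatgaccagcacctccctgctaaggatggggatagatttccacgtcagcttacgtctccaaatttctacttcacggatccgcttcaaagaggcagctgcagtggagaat
TATAAA stood in 3 of 23 RefSeq promoters of 21 HOX genes (13.04%) and in 13.6% of all 32851 promoters. CCAAT stood in 14 HOX promoters (60.9%) and 37.4% of all, the PBX-HOX motif TGATNNAT in 17.4% and 8.85%, and the MEIS motif TGACAG in 8.70% and 19.2%; no overlaps between motifs were removed. The HOX promoters were rich in CpG, with a median observed to expected ratio of 0.657 against 0.384 for all promoters. The 8 promoters of HOX genes without any read had a median of 0.855 and the 7 of genes found in at least 5 cells one of 0.405, but the 2 Hoxa10 promoters had 0.853 and 0.596. The 7 came from 6 of the 9 genes found that widely, as no promoter was listed for Hoxc8, Hoxc6 or Hoxc9. The 8 came from 8 of the 15 genes without a read, so neither median covers its whole group. A motif or a ratio is a description of the sequence and not of a bound site.

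Below these 2 genes stood Hoxa9 in 11 cells, Hoxc6 in 10, Hoxa7 in 9, Hoxd8 in 7, and Hoxa2, Hoxc4 and Hoxc9 in 5 each. Hoxa9, a regulator of blood progenitors, ran from 0 through a median of 2.76 to 273 RPKM in cell 6, with 68.8 RPKM in cell 2 next (mean 24.2 ± 61.4 RPKM, SD, n = 20 cells). Hoxa7, which like Hoxa9 is raised in leukaemias with KMT2A fusions, had a median of 0.410 RPKM and peaked in cell 1 at 404 RPKM, ahead of cell 9 at 206 RPKM (mean 42.5 ± 99.9 RPKM). In both genes 1 cell held much of the total, 56.6% for Hoxa9 and 47.5% for Hoxa7. Hoxc6, a gene of thoracic identity, had a median of 0.635 RPKM and peaked in cell 6 at 105 RPKM, ahead of cell 15 at 45.7 RPKM (mean 10.1 ± 24.7 RPKM). It was found in 9 unmixed cells and 1 mixed cell.

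Hoxd8 was the only HOXD gene found in at least 5 cells, at a median of 0. It stood at 293 RPKM in cell 13 and no higher than 23.3 RPKM, in cell 2, elsewhere (mean 17.2 ± 65.2 RPKM, SD, n = 20 cells). Hoxa2, which sets hindbrain and branchial arch identity, had a median of 0, with 41.7, 33.8 and 26.1 RPKM in cells 16, 14 and 18. It was the sole gene of the lowest paralog numbers, 1 to 3, seen that widely. Hoxc4 was found only in unmixed cells, 1, 3, 13, 17 and 20, at a median of 0 over all cells and up to 51.9 RPKM in cell 3. Hoxc9, a thoracic motor neuron gene, never passed 6.66 RPKM, in cell 13, with a median of 0.0975 RPKM.

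Hoxc8, Hoxa9 and Hoxa7 share a feature of their transcripts. The clusters themselves encode miRNAs, short RNAs that pair through bases 2 to 8, the seed, with sites in 3′ UTRs and lower the target's output; in the mouse miR-196 cleaves the Hoxb8 transcript. The mature sequences from RefSeq (GRCm38.p6), with the seed in capitals, are given for the miR-196 and miR-10 families, each with a seed of its own. The miR-196a genes lie at chr11:96265187-96265208 and chr15:102973365-102973386 (plus strand), miR-196b at chr6:52230129-52230150 (minus), miR-10a at chr11:96317186-96317208 and miR-10b at chr2:74726074-74726096 (plus). A further miRNA of HOXC, miR-615-5p, at chr15:103014926-103014947 (plus), has a seed of neither family, and its matches were not searched.
miR-196a-5p: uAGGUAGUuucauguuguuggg
miR-196b-5p: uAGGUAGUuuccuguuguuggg
miR-10a-5p: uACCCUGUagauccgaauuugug
miR-10b-5p: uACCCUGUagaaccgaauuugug
miR-615-5p: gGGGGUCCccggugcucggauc
The complement of the miR-196 seed, ACTACCT, stood in the annotated 3′ UTR of 9 of 37 HOX genes (24.3%), among them Hoxa5, Hoxa7, Hoxa9, Hoxb6, Hoxb7 and Hoxc8, against 6.21% of 20676 genes, at median UTR lengths of 983 and 988 bases. The annotated 3′ UTR of Hoxb8, the cleaved transcript named above, was searched and did not hold it, so the search can miss a target. Of the 9 HOX genes found in at least 5 cells 3 held it, and of the 15 without a read 2. The miR-10 complement, ACAGGGT, stood in 4 HOX genes (10.8%), among them Hoxa3 and Hoxb3, against 12.7% of all, and in none of the 9. The sites below, in DNA letters from the GRCm38 genome with the match in capitals, show that the transcripts found most often include seed-matched ones; Hoxc8 has 2 and Hoxa7 has 4, of which the first is given.
Hoxc8, chr15:102992975-102992997, plus strand: acactcacaactctaACTACCTg
Hoxc8, chr15:102993732-102993754, plus strand: ataaatctttaacatACTACCTa
Hoxa9, chr6:52223900-52223922, minus strand: gcaaaaggaaagaaaACTACCTt
Hoxa7, chr6:52215400-52215422, minus strand: aggcacagccaaaatACTACCTa
The rows of Mir196a-1, Mir196a-2, Mir196b, Mir10a and Mir615 were at 0 in every cell, and Mir10b had 14.9 RPKM in cell 9 but 1.87 in cell 11. Mir10b lies within the span of Hoxd3, which was found in the same cells, 9 and 11. Such rows hold reads from the longer RNA around a miRNA, and mature miRNAs were not analysed here. A seed match is a run of letters and shows no binding.

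The remaining 10 HOX genes that were found appeared in few cells, several of them at high level. Hoxc10, a gene of lumbar motor neurons, was found in 4 cells, at 58.2 RPKM in cell 2, 38.7 in cell 13, 3.46 in cell 11 and 1.64 in cell 10. Hoxb7, whose promoter is used to mark the ureteric bud in mice, stood at 179 RPKM in cell 6 but at 3.97 in cell 13. Hoxd3 was present in cells 9 and 11, at 34.8 and 8.67 RPKM, and Hoxd10, a gene of the hindlimb, in cells 5 and 1, at 24.97 and 1.94 RPKM. Another 6 genes were found in 1 cell each. Hoxc5 reached 197 RPKM in cell 18, and Hoxa5, a gene of lung development, 77.9 RPKM in cell 5, where Hoxb6 stood at 13.4 RPKM. Hoxd9 had 3.13 RPKM in cell 14, and Hoxa3 and Hoxa4 had 1.60 and 1.77 RPKM, both in cell 9. Hoxa5, Hoxb6 and Hoxd9 were found in mixed cells alone, so 16 HOX genes were found without those cells.

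Of the 19 HOX genes not found, 4 had traces under 1 RPKM. Their highest values were 0.253 RPKM for Hoxb3 (cell 1), 0.119 for Hoxb4 (cell 10), 0.0595 for Hoxb9 (cell 16) and 0.422 for Hoxd11 (cell 15). No read was counted for the other 15. They included Hoxa6, Hoxb5 and Hoxb8 in the middle of the clusters, and Hoxa11, Hoxa13, Hoxb13, Hoxc11, Hoxc12, Hoxc13, Hoxd12 and Hoxd13 at their late ends. A count of 0 allows up to 3 reads, which at a gene's mean transcript length came to 0.113 RPKM for Hoxd12 in the deepest library and to 0.816 RPKM for the short Hoxa6 in the shallowest. For Hoxa11 this limit was 0.131 to 0.325 RPKM per cell. It takes the whole transcript as countable, although 34.98% of the exonic bases of Hoxa11 overlap Hoxa11os, which had 2.99 RPKM in cell 2. How reads in that overlap were counted is not given in the sources. These limits cover counting error only, as amplified reads are not independent molecules and RNA lost before amplification leaves no read.

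By paralog number, the HOX RNA of these cells lay mostly in the middle of the numbering. Numbers 4 to 10 held 16 of the 19 genes found and 97.1% of the summed HOX RPKM, a division chosen after the values were seen. Of the 8 genes numbered 1 to 3, which lie in HOXA, HOXB and HOXD only, 3 were found, with 2.87% of the RPKM. HOXC begins at number 4 in the table. Of the 9 genes numbered 11 to 13, none was found, and Hoxd11 alone had any signal. Number 8 gave 32.0% of the HOX RPKM and was found in 17 cells, and number 10 gave 25.9% in 16 cells. Numbers 7, 9, 5 and 6 followed with 19.02%, 9.48%, 5.08% and 3.99%. The median level of paralog 10, 25.2 RPKM per cell with all cells, was 5.65 RPKM in the unmixed cells, while that of paralog 8 was 28.7 and 32.8 RPKM.

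**Figure D3:**
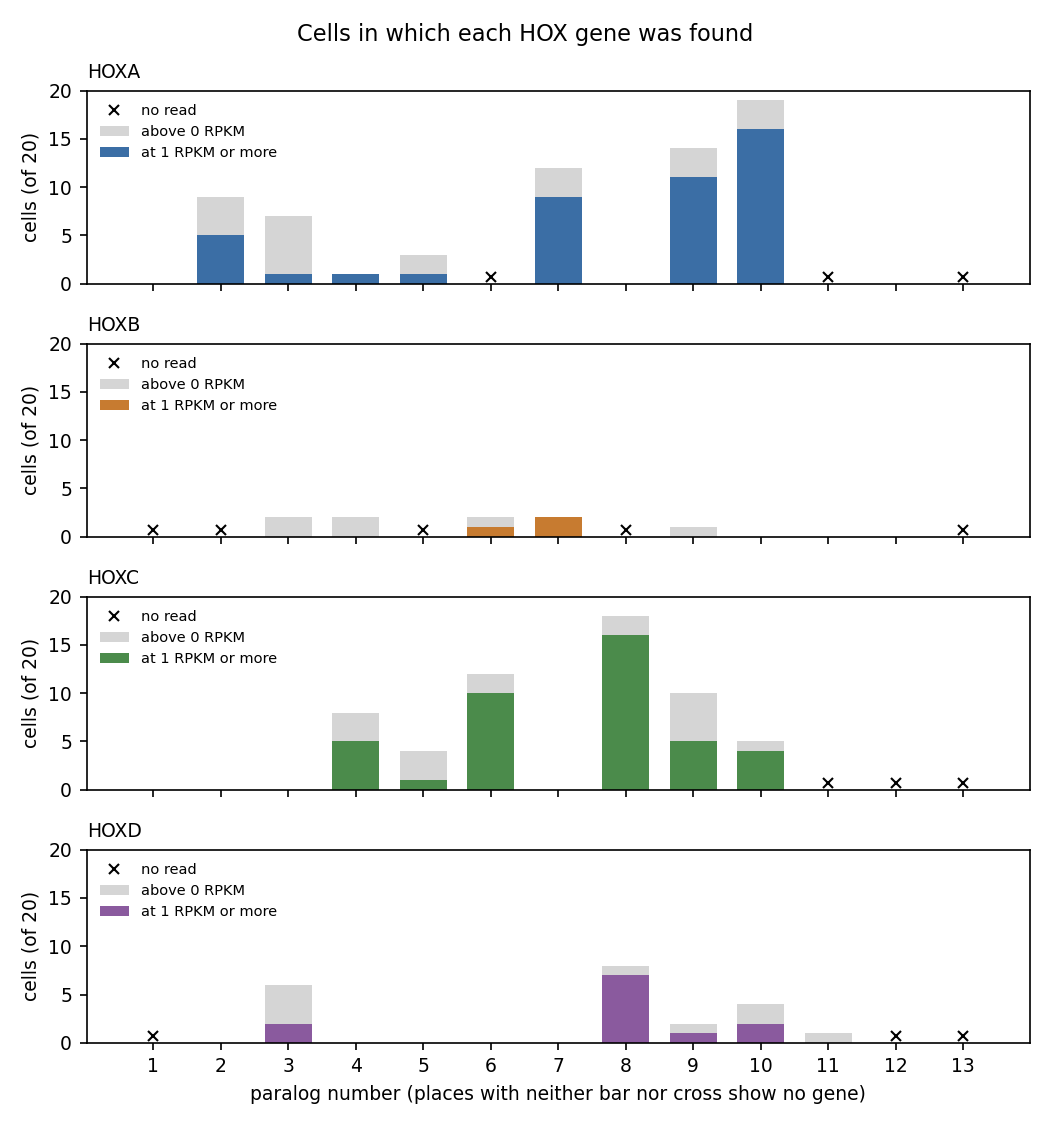
Number of cells, of 20, in which each HOX gene was found, by cluster and paralog number; coloured bars count cells at 1 RPKM or more, grey tops cells with a lower level, crosses mark genes without a read, and other places show no gene. The tallest coloured bars, 16 cells each, are Hoxa10 and Hoxc8, and no coloured bar stands at 11, 12 or 13 in any cluster.

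By cluster, HOXA and HOXC carried most of the signal. HOXA had 7 of 11 members found, at least 1 of them in 18 cells, and 51.6% of the summed HOX RPKM. HOXC had 6 of 9 found, in 17 cells, with 37.0%. HOXD had 4 of 8 found, in 11 cells, with 7.72%, of which most was Hoxd8 in cell 13. HOXB had 2 of 10 found, Hoxb6 and Hoxb7, in 3 cells, with 3.64%. The order of HOXA and HOXC depended on the mixed cells. In the 14 unmixed cells the mean sum per cell was 122 RPKM for HOXC and 93.1 for HOXA. In the 6 mixed cells it was 49.96 for HOXC and 249.5 for HOXA. The summed level per cell had a median of 78.6 RPKM for HOXA (0.197 to 616), 45.7 for HOXC (0 to 552), 1.75 for HOXD (0 to 293) and 0 for HOXB (0 to 179).

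The balance of HOXA and HOXC differed widely from cell to cell. HOXA gave over 50% of a cell's HOX RPKM in 11 cells, HOXC in 7 and HOXD in 1, cell 13; cell 6 had no such cluster. In cells 3, 7 and 20 HOXC gave 99.4%, 99.2% and 96.9%, and in cells 8 and 14 HOXA gave 99.0% and 98.4%. The mixed cells leaned to HOXA: its share had a median of 86.4% in them (46.7% to 99.0%) and 23.1% in the unmixed cells (0.575% to 92.6%). The HOXC share had a median of 4.30% in the mixed (0 to 29.5%) and 51.1% in the unmixed cells (0.959% to 99.4%). The ranges overlapped, as cells 1, 9 and 19 were unmixed with HOXA shares of 92.6%, 85.2% and 88.4%. Without the mixed cells the median HOXA level fell from 78.6 to 47.9 RPKM and that of HOXD from 1.75 to 0.240 RPKM, and that of HOXC was 51.4 RPKM. The part of mesangial or endothelial RNA in these shares was not tested.

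**Figure D4:**
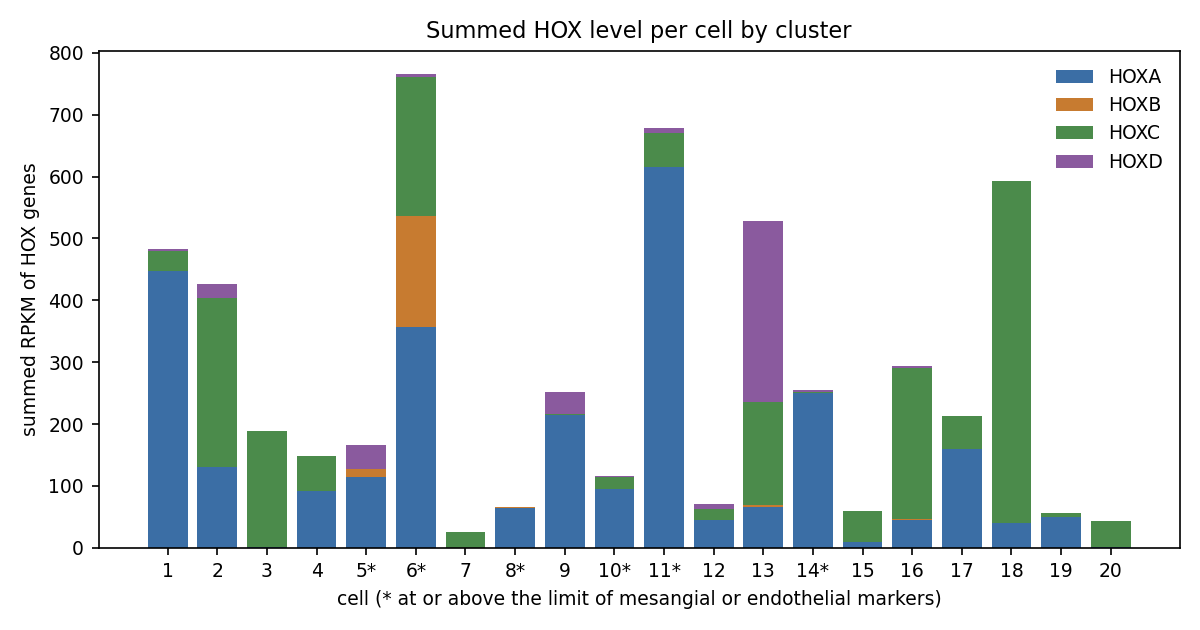
Summed RPKM of the HOX genes in each of the 20 cells, stacked by cluster, with mixed cells starred. The smallest total is 25.2 RPKM (cell 7) and the largest 765 RPKM (cell 6); bars of nearly pure HOXC (cells 3, 7, 20) and nearly pure HOXA (cells 8, 14) stand side by side.

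No 2 cells held the same HOX genes: the 20 cells had 20 different sets. The same count was not made for other lists of genes, so it is not shown to be particular to HOX genes. A cell held a median of 5 HOX genes (mean 5 ± 2.05, SD, n = 20 cells), from 2 in cell 7 (Hoxc8 and Hoxc9) to 11 in cell 13, and the median was 5 in mixed and in unmixed cells alike. In most cells 1 gene dominated. The leading gene gave a median of 66.5% of the cell's HOX RPKM, from 35.7% in cell 6 to 85.2% in cell 11, and over 50% in 16 cells. Hoxc8 led in 6 cells, Hoxa10 in 4, Hoxa9 in 4, Hoxa7 in 3, and Hoxa5, Hoxc6 and Hoxd8 in 1 each. The number of HOX genes found had a Spearman correlation of 0.377 with the number of all genes found (Pearson 0.337, n = 20 cells of 1 mouse), 0.367 without cells 10 and 11, the 2 farthest from the median, and 0.595 in the 14 unmixed cells. With the reads of a library the Spearman correlation was -0.0176, and the sign turned in each other calculation: 0.0799 without the 2 cells farthest from the median number of genes, 0.206 in the unmixed cells, and 0.189 (all cells) and 0.362 (unmixed) by Pearson. Cell 13, with 11 HOX genes, had 3808 genes in all, against a median of 3306.

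Correlations between HOX genes were mostly weak, within clusters and across them. Over the 20 cells the 12 same-cluster pairs of the 9 genes found in at least 5 cells had a median Spearman correlation of -0.0228 (-0.204 to 0.542), and the 24 pairs across clusters had 0.0810 (-0.487 to 0.490). In the unmixed cells the medians were 0.107 and 0.159. The highest was between Hoxc6 and Hoxc8, at 0.542, found together in 9 cells. Next came Hoxa9 with Hoxd8 at 0.490, and the lowest was Hoxa10 with Hoxc4 at -0.487. Among these 9, 4 pairs lie next to each other in their cluster, with no other HOX gene of the table between them by paralog number, and they differed. Hoxc6 and Hoxc8 are such a pair, while Hoxa7 and Hoxa9 had -0.0850 and shared 6 cells, Hoxa9 and Hoxa10 had -0.111 and shared 9, and Hoxc8 and Hoxc9 had -0.0551 and shared 4. All pairs share the same libraries and many zeros, so these values are a description without a test.

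**Figure D5:**
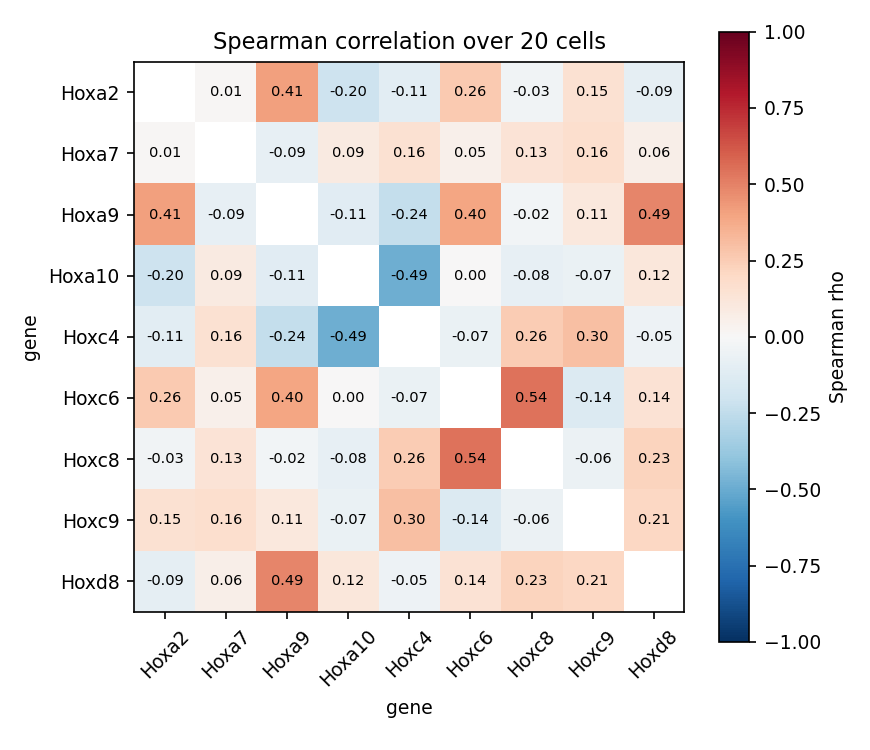
Spearman correlation over 20 cells for each pair of the 9 HOX genes found in at least 5 cells, from negative (blue) to positive (red). Most of the 36 pairs are pale; Hoxc6 with Hoxc8 (0.54) and Hoxa9 with Hoxd8 (0.49) are the reddest and Hoxa10 with Hoxc4 (-0.49) the bluest.

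HOX proteins bind DNA with TALE homeodomain partners, the PBX, MEIS and PKNOX proteins. Of 9 genes for them 8 were found, 3 in at least 5 cells. Meis2 was found in 10 cells, from 0 through a median of 1.15 to 435 RPKM in cell 8. Pbx2, found in 5 cells, had a median of 0.157 RPKM, while Pbx4 was at 0 throughout. Like the HOX genes, none of these partners was found in every cell.

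Of 23 genes for chromatin regulators that keep HOX clusters on or off, 21 were found, 13 in 5 to 19 cells. This list and that of the partners, chosen with earlier results known, lay above the protein-coding shares of 46.5% and 23%. Rad21, a cohesin subunit, had the highest median, 73.9 RPKM, and was found in 19 cells. Jarid2, which guides Polycomb repressive complex PRC2, followed with 73.3 RPKM in 16 cells. Kmt2d, a histone H3 lysine methyltransferase, had 32.8 RPKM in 19 cells. Ezh2, the PRC2 methyltransferase of dividing cells, and Cbx2 were found in none.

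Of 13 genes of retinoic acid signalling, which induces HOX genes in embryos, 6 were found, and Rarg alone reached 5 cells, at 6. Of 9 genes that act with or below the paralog 11 proteins in mouse kidney development, 4 were found. The counts for these lists lay near the protein-coding share of 46.5%. Itga8 was found in 5 mixed cells, being also a mesangial marker, and Sall1 in 4 cells. No read was counted for 5, among them Six2, a marker of nephron progenitors, and Gdnf. Other homeobox genes gave 9 of 31 found, a lower share than 46.5%. Their highest medians were 7.24 RPKM for Cux1 (17 cells), 5.06 RPKM for Zeb2 (12 cells) and 2.003 RPKM for Zhx1 (10 cells).

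Among 46 other genes in or beside the clusters, 13 were found, near the share of 30% over all genes in the table. Hotairm1, a noncoding RNA transcribed from the start of HOXA, was found in 8 cells, 5 of them mixed, with its highest level, 85.6 RPKM, in cell 8 and 54.2 in cell 13. It shared 2 cells with its near neighbour Hoxa2. Skap2, beside HOXA, was found in 9 cells. Hoxd3os1, which overlaps Hoxd3, was found in 5 cells up to 64.4 RPKM in cell 8, where Hoxd3 was at 0. In cell 9 Hoxd3os1 stood at 5.89 RPKM beside 34.8 RPKM of Hoxd3, and Hoxd3 was not found in its other cells, 6, 17 and 18. In cell 16 Haglr stood at 74.6 RPKM, and in cell 14 Hoxaas3 stood at 199 RPKM, while Hotair, Hottip, Halr1, Evx1 and Evx2 were at 0 in every cell.

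Some members are uncertain because their exons overlap other genes of the table and whether the counting used strand is not given in the sources. This touched 11 of 38 genes, most of all Hoxb3 (52.9% of exonic bases, by Hoxb3os), Hoxa11 (34.98%, Hoxa11os), Hoxb2 (27.3%, Hoxb3os), Hoxa7 (20.4%, Hoxaas3) and Hoxa3 (18.2%). Hoxaas3 was found in cells 10 and 14, and Hoxa7 stood at 3.53 and 0 RPKM there. Hoxc5 and Hoxc10 share exonic bases on the same strand, 5.37% and 8.70% of each. Hoxd3 shares 60.3% of its stretches of 50 bases with other annotated genes, namely Gm28230, Hoxd3os1 and Hoxd4. The levels given for Hoxd3, and with it for HOXD and paralog 3, may hold reads of these genes or lack reads from the shared stretches, which was not tested. Hoxa2 shares 12.7% of its stretches, with Gm28308, and Hoxa4 13.3%, with Gm29430. Hoxa10 and Hoxc6 share none and Hoxc8 0.432%.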

How the data were processed

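RPKM values (reads per kilobase and per 1000000 reads) for 39179 Ensembl genes in 20 cells were used as deposited by the authors, with 1 blank set to 0. The submitters' processing notes name the aligner TopHat2 (2.0.12), the read counter HTSeq (0.6.1) and the genome build GRCm38; settings, strand and gene lengths are not given in the sources. Library totals and reads were recovered from the values, which are whole reads divided by length and total; 21 of 23 HOX genes with signal came out whole within 0.01 read. Tested on simulated data for 12000 genes, recovery returned 20 of 20 totals. Of the lengths, 9 were the mean transcript length. The others were the smallest in a search that gave whole reads, so whole reads are no check for them. Some exceed the longest annotated transcript, as for Hoxb4 (4136 against 2566 bases) and Hoxa2 (2423 against 1775). Reads of these genes may therefore be wrong, or a fraction of the true ones.

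A gene was found at 1 RPKM or more. Symbols, coordinates (counted from 1), exons and 3′ UTRs came from GENCODE M21 (GRCm38), which matched 37607 IDs; promoters and miRNAs came from RefSeq (GRCm38.p6). With 1 group from 1 mouse no test was run, and correlations carry no p. Python 3.11.15, numpy 2.4.6, pandas 2.3.3, scipy 1.17.1 and matplotlib 3.10.9 were used. The members, the other gene lists, the marker lists and the marker limit were chosen with earlier results of these data known. All HOX genes enter the counts, but some items are not reported here; from the other lists, genes found in every cell, the 3 highest medians and up to 4 genes found in none were to be named. Further genes of these lists were named after their values were seen. Alternatives were other detection limits, rescaling, leaving out cells, the longest transcript as length and other correlations.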

Additional observations from a re-analysis of the deposited data

How the results depend on the processing

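The count of 19 HOX genes found in at least 1 cell was 23 above 0, 16 at 5 RPKM, 19 at 10 reads, 19 after rescaling each cell to a sum of 1000000, 18 with the longest transcript as length, 16 without the mixed cells and 17 to 19 with each cell left out in turn. The median of 5 HOX genes per cell became 8 with detection above 0 and 3 at 5 RPKM. With the longest transcript as length the paralog 10 median fell from 25.2 to 16.6 RPKM and that of paralog 9 from 4.63 to 2.70 RPKM. The paralog 7 median, 0.410 RPKM, lay between 0.0980 and 0.721 RPKM when 1 cell was left out. Alternatives for the partner and chromatin lists, added after seeing the data, gave 7 to 8 and 20 to 22 genes found. No paired analysis was possible because there is 1 group. Depth limits statements on genes without reads to the stated 3-read limits.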
